A study of Drosophila melanogaster with 3 samples.

Results

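The 10 genes described here regulate the Drosophila cell cycle: the cyclins CycE, CycD, CycA and CycB, the kinase Cdk1, the transcription factor E2f1, and the regulators trbl, stg, dap and fzr. They were chosen by name out of 13945 protein-coding genes, and a peak was given to a gene when its summit lay in the gene body or within 1 kb upstream of it. The peaks come from chromatin immunoprecipitation with sequencing (ChIP-seq) of E(spl)mgamma-HLH in Drosophila melanogaster. Whole embryos of pooled male and female sex, 0 to 16 hours old, came from 1 transgenic line that stably expresses the factor with GFP at the C terminus, and an anti-GFP antibody was used. There were 3 biological replicates in 1 group, with chromatin sheared by sonication to between 200 and 800 bp. A possible control experiment is named for every sample and was not analysed here, so the data hold no contrast and no test was made. An embryo of these ages is a mixture of many cell types at different cell cycle stages, and strong occupancy in few cells cannot be told apart from weak occupancy in many.

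E(spl)mgamma-HLH belongs to the Hairy/E(spl) proteins, basic helix-loop-helix repressors, and its gene sits in a cluster that Notch signalling activates. In the embryo the early divisions are fast and maternally driven. Later divisions wait for zygotic String, the Cdc25-type phosphatase that activates Cdk1. Most cells then stop dividing as cyclin E activity falls and the inhibitor Dacapo and the ubiquitin ligase activator Fzr come on.

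The authors' reproducible set of 4524 peaks, obtained with the irreproducible discovery rate (IDR) procedure, held 9 summits at these genes. They lay at 5 of the 10 genes, with 3 at trbl, 2 each at CycE and E2f1, and 1 each at Cdk1 and CycB. No reproducible summit lay at CycA, CycD, stg, dap or fzr. Among all protein-coding genes, 3680 had a reproducible summit by the same rule, which is 26.4%. The 10 genes carried 0.809 reproducible summits per 10 kb of gene and upstream sequence, against 0.406 per 10 kb over all protein-coding genes. Their median length with the upstream kilobase was 5.65 kb, against 3.17 kb for all protein-coding genes, and the part of gene length in these counts was not tested. Of the 10 genes, 3 had at least 2 reproducible summits, against 887 of all protein-coding genes (6.36%). The 2 CycE peaks overlap, and 2 of the trbl peaks lie next to each other. Each summit was counted on its own, as it was for all genes. With the upstream kilobase left out, the count was 3 of the 10 genes (CycE, E2f1 and trbl), against 11.3% of all protein-coding genes. With summits counted only within 1 kb of a transcription start site (TSS) of the gene, it was also 3 of 10 (CycB, CycE and Cdk1), against 23.1%.

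The top peaks of every replicate included the same 5 genes. Top peaks of a replicate are taken here as its 4524 peaks of highest signal, as many as the reproducible set holds. Top peaks of replicate 1 lay at 6 of the 10 genes, the 5 above and CycD, against 26.7% of all protein-coding genes. In replicate 2 they lay at the same 5 genes, against 25.0%. In replicate 3 they lay at 6 genes, the 5 above and fzr, against 26.5%. The reproducible set was derived from these replicate lists, so this agreement is not independent of it. In the list called on the pooled replicates, peaks with a q-value below 0.05 lay at 9 of the 10 genes, all but dap, against 37.9% of all protein-coding genes.

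**Figure D1:**
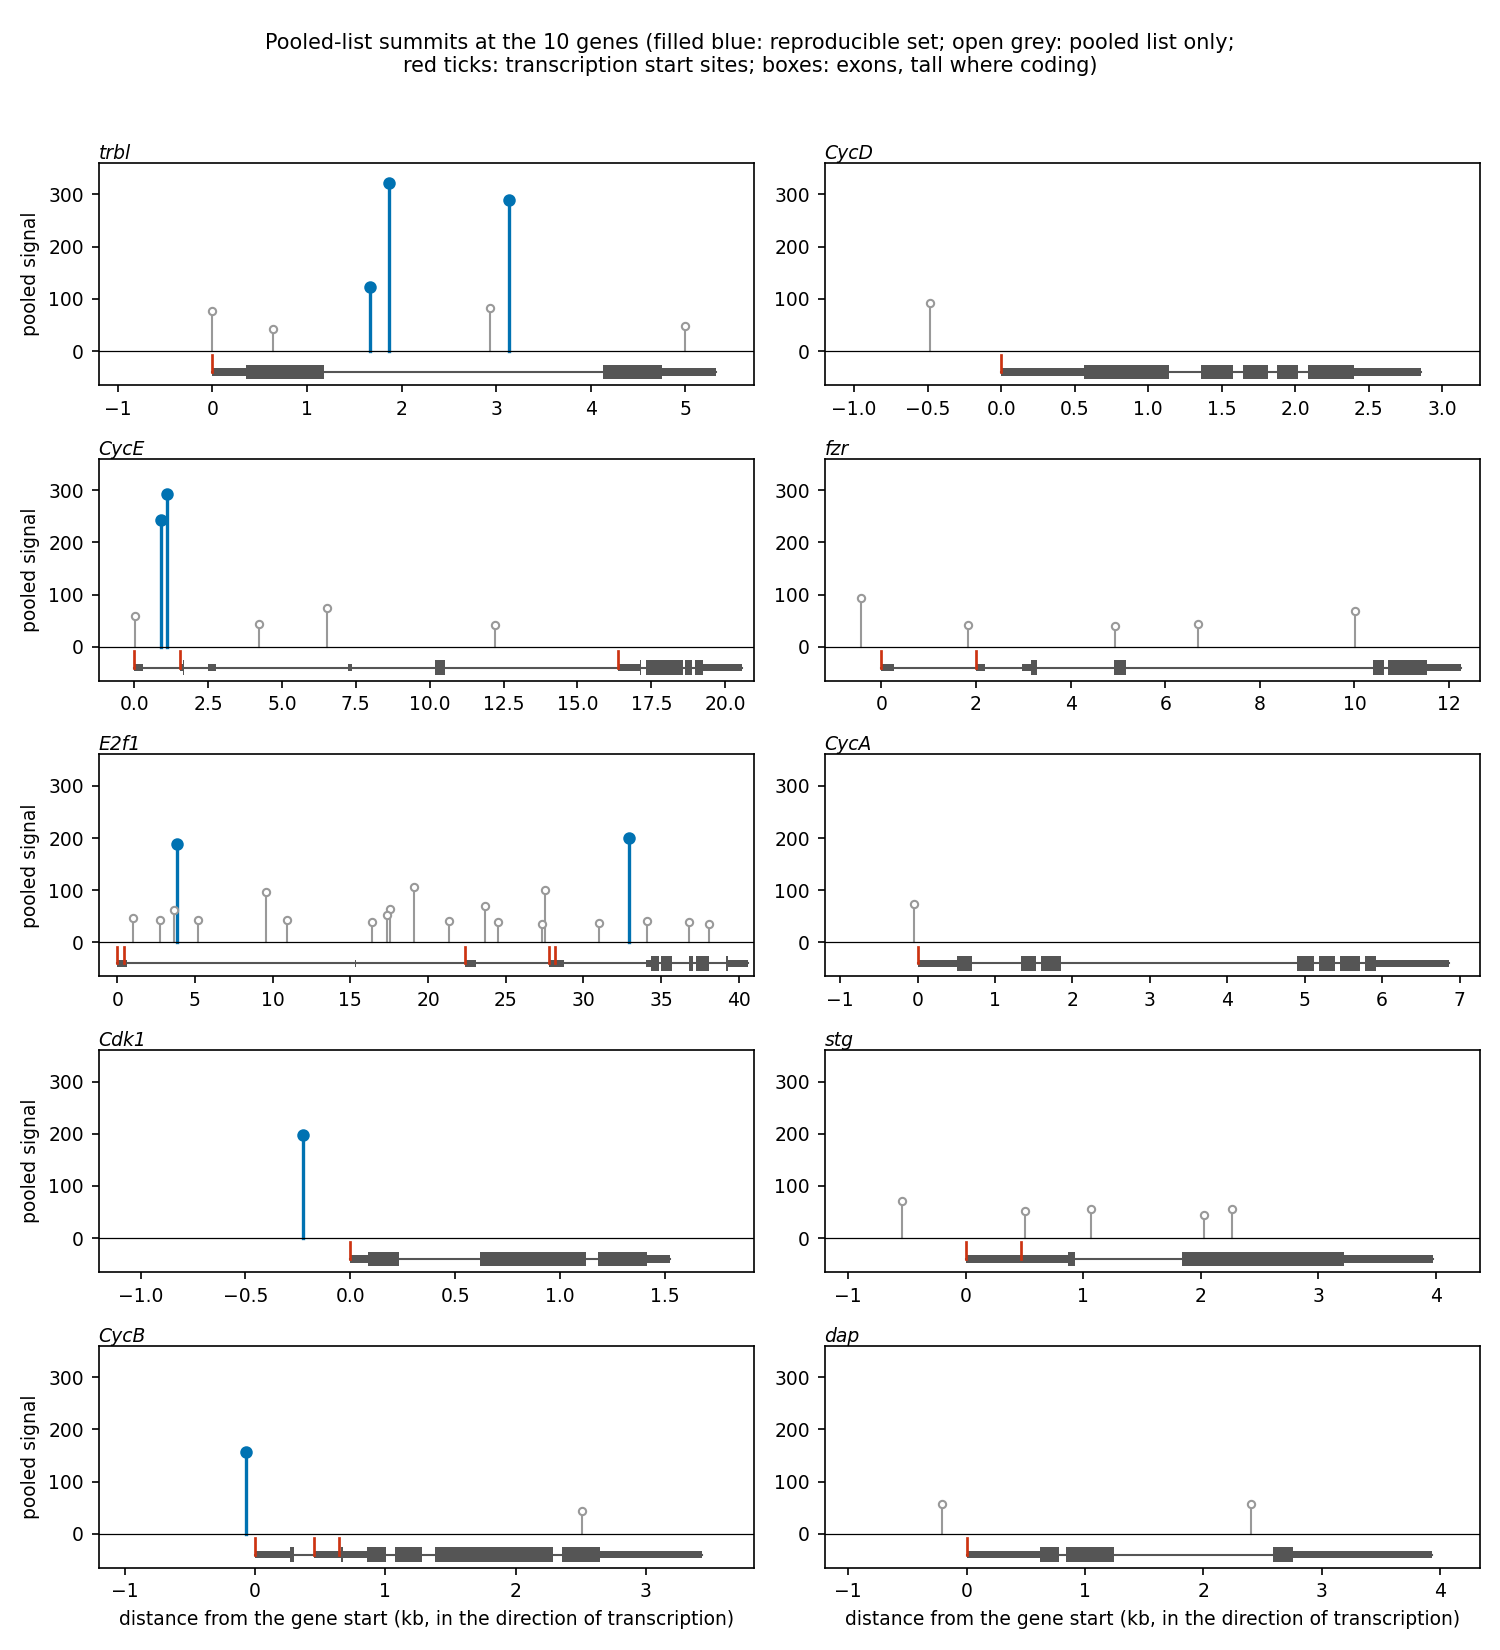
Position of every peak summit of the pooled list at the 10 genes, in kb from the gene start in the direction of transcription, with the height of each stem giving the peak's signal in the pooled list, red ticks marking TSSs and boxes marking exons (tall where coding). The 9 reproducible summits (filled blue), set apart from the other 42 (open grey), sit at trbl, CycE, E2f1, Cdk1 and CycB.

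Sequences of 101 bp around a summit are given with the sites below because they show the DNA at the points of highest signal. All are in dm6, read 5′ to 3′ on the plus strand from the RefSeq release 6 genome, and all the genes concerned lie on the minus strand. Capitals mark CACNAG, the N-box bound by Hairy/E(spl) proteins, or CATATG, an E-box hexamer looked for only after these windows had been read. Distances are from the gene's own nearest TSS, and a negative distance is upstream. Signal is the authors' own value for each peak and orders peaks within 1 list only, as do ranks, which start at 1 for the highest signal. The lists of the 3 replicates held 23367, 30000 and 24251 peaks, so a rank does not carry over from one list to another.

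Tribbles, encoded by trbl (FBgn0028978, chr3L:20396288-20401609), is a pseudokinase that promotes the degradation of String and so holds back mitosis, as in the mesoderm at gastrulation. It had 3 reproducible peaks, all in its single intron. With replicate 2 or replicate 3 left out it had 2, as many as CycE and E2f1. The strongest had its summit at +1872 bp (peak chr3L:20399605-20399737) and was rank 1016 of the set with a pooled signal of 323. Its signal in replicates 1, 2 and 3 was 119, 95.9 and 112, at ranks 935, 1327 and 855. A second peak at +3140 bp (chr3L:20398351-20398514, rank 1232 of the set) had signals of 108, 98.7 and 86.0, at ranks 1114, 1274 and 1359. Both were top peaks of every replicate. The weakest of the 3, at +1670 bp (chr3L:20399747-20400130), was near the end of the set at rank 4181. Its signals were 17.8, 21.3 and 52.2, at ranks 20519, 11602 and 2805, so it was a top peak in replicate 3 and far down the lists of the other replicates. In replicate 2 its summit also lay inside the peak of rank 1327 that was matched to +1872 bp. The q-value of that site was 0.903 in replicate 1 and 0.0252 in replicate 2. In all, trbl had 7 pooled peaks, 5 of them with a q-value below 0.05. The strongest window holds 1 N-box letter match on its minus strand, beyond the end of the deposited peak, which stops at the summit, and inside the adjacent peak at +1670 bp.
trbl +1872 chr3L:20399687-20399787: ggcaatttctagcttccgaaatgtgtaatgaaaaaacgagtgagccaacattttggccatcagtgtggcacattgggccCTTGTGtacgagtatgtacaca
trbl +3140 chr3L:20398419-20398519: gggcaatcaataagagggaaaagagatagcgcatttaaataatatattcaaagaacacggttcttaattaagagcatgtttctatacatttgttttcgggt

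Cyclin E, encoded by CycE (FBgn0010382, chr2L:15727581-15748150), partners with Cdk2 to start S phase, and its loss from embryonic cells accompanies their arrest in G1. CycE has 3 annotated TSSs, at 0, 1540 and 16366 bp from the gene start. Both of its reproducible peaks lay between the first and the next of these, at 893 and 1121 bp from the gene start, in the first intron of the transcripts that begin at the gene start. The peak at -419 bp from the internal TSS (chr2L:15746963-15747082) was rank 1216 of the set with a pooled signal of 292, and its position within 500 bp of a TSS put it in the promoter class. Its signals in replicates 1, 2 and 3 were 91.3, 97.8 and 97.2, at ranks 1460, 1291 and 1125. The peak at -647 bp (chr2L:15747065-15747448) was rank 1678 of the set, with a pooled signal of 243. In replicate 1 its signal was 57.5 at rank 2911, and in replicate 2 it was 73.0 at rank 2081. Replicate 3 listed a single peak over both summits, so its value of 97.2 at rank 1125 belongs to both sites. The deposited intervals of the pair overlap, and each window holds 1 CATATG.
CycE -419 chr2L:15746979-15747079: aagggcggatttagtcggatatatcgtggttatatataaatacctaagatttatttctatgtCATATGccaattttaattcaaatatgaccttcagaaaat
CycE -647 chr2L:15747207-15747307: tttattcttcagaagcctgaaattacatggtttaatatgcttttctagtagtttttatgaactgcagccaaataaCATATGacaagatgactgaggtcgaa

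E2f1 (FBgn0011766, chr3R:21620304-21660871) is the activating E2F factor, which with Dp turns on S phase genes, CycE among them. At 40.568 kb it is the longest of the 10 genes, with 5 annotated TSSs and 21 peaks in the pooled list, of which 6 had a q-value below 0.05 and 2 were reproducible. Both reproducible peaks were intronic. The one at +4757 bp from its nearest own TSS (chr3R:21627859-21627981), far inside the gene at 32935 bp from its start, was rank 2185 with a pooled signal of 201. Its signals were 55.6, 89.8 and 61.8 in replicates 1, 2 and 3, at ranks 3048, 1517 and 2234. The other, at +3385 bp (chr3R:21656855-21657238) and nearer the gene start, was rank 2384 of the set. Its signals were 72.3, 66.1 and 59.1, at ranks 2128, 2443 and 2372, and both sites were top peaks of every replicate. None of the motifs sought lies in either window, both of which are rich in A and T.
E2f1 +4757 chr3R:21627886-21627986: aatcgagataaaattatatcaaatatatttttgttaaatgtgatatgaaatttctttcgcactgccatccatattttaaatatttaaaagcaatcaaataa
E2f1 +3385 chr3R:21656997-21657097: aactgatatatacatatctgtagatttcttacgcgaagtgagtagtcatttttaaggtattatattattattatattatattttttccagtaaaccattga

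Cdk1 (FBgn0004106, chr2L:10384739-10386262) encodes the kinase that drives entry into mitosis. It had 1 peak in every list, a promoter peak at -227 bp (chr2L:10386297-10386680) that was rank 2247 of the set with a pooled signal of 197. Signals in replicates 1, 2 and 3 were 60.8, 58.6 and 63.3, at ranks 2679, 2929 and 2156. The summit lies between divergent genes and is closer to the TSS of mRpS7, a mitochondrial ribosomal protein gene, at -173 bp from that TSS. A peak cannot be assigned to one of the pair from position alone, and with each summit given to its nearest TSS Cdk1 had none.
Cdk1 -227 chr2L:10386439-10386539: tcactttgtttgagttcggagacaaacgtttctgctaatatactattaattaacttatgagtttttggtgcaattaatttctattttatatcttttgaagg

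CycB (FBgn0000405, chr2R:22803521-22806948), whose cyclin B binds Cdk1 for mitosis, had a promoter peak at -68 bp, the closest of the 9 to a TSS of its gene. It was rank 3081 of the set with a pooled signal of 156, and it also lay within 1 kb upstream of the divergent gene stl. Its signals in replicates 1, 2 and 3 were 63.6, 47.9 and 36.7, at ranks 2501, 3892 and 4351. It was a top peak in each. CycB alone of the 5 genes lost its peak when only the upper part of the set by signal was kept. CycB was also the gene with the strongest peak just beyond the counting rule. That peak (chr2R:22802795-22803139) lay 550 bp past the 3′ end of CycB, where it was rank 48 of the set with a pooled signal of 1229. It was at ranks 56, 38 and 64 in the replicates. The summit is intergenic, the nearest protein-coding TSS is that of CycB itself at 3332 bp, and the closest other gene, blw, is 791 bp away.

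CycD (FBgn0010315, chrX:15906822-15909676) and fzr (FBgn0262699, chrX:4667290-4679537) had promoter peaks outside the reproducible set that were top peaks in 1 replicate each. Cyclin D works with Cdk4 to promote growth and division, and its gene had a single pooled peak, at -484 bp, with a signal of 91.7 and a q-value of 0.000939. At that site the signals were 46.0, 12.7 and 31.5 in replicates 1, 2 and 3, at ranks 3822, 23340 and 5189, so replicate 2 was the low one. The site also lies within 1 kb upstream of the divergent gene Lrp4. The strongest replicate 2 peak at CycD was another one, at -233 bp, with a signal of 19.0 at rank 13486 and a q-value of 0.064. Fzr, the Cdh1-type activator of the anaphase-promoting complex (APC/C), clears mitotic cyclins in cells that stop dividing. Its strongest pooled peak, at -424 bp, had a signal of 93.8 and a q-value of 0.000438. The replicate signals were 36.2, 22.1 and 40.9, at ranks 5138, 11002 and 3820, and this site had a q-value below 0.05 in all 3 replicates. Both pooled signals were below 114, the lowest signal in the reproducible set.

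The remaining genes, stg, CycA and dap, had only weak peaks, and none was a top peak of any replicate. String (stg, FBgn0003525, chr3R:29251826-29255800) is the rate-limiting trigger of embryonic mitosis after cellularisation, and its regulatory DNA extends far from the gene. Its strongest pooled peak had a signal of 71.6 and lay at -539 bp, nearer to the TSS of CG45544 at -146 bp. That site had signals of 19.8, 21.7 and 23.0 in replicates 1, 2 and 3, with q-values of 0.776, 0.0214 and 0.0849. In replicate 2, 5 peaks at stg had a q-value below 0.05, and in replicates 1 and 3 none had. Over the whole lists, 5411, 12953 and 7087 peaks of replicates 1, 2 and 3 had a q-value below 0.05. A q-value below 0.05 in replicate 2 alone, here and at the genes below, is therefore not read as a difference in occupancy between replicates. Cyclin A acts in S phase and mitosis, and its gene (CycA, FBgn0000404, chr3L:11826719-11833578) had 1 pooled peak, at -47 bp, with a signal of 73.1. The replicate signals there were 17.5, 21.6 and 20.5, with q-values of 0.924, 0.0223 and 0.187. Dacapo, the inhibitor of cyclin E and Cdk2 (dap, FBgn0010316, chr2R:9712321-9716256), had 2 pooled peaks, neither with a q-value below 0.05. The stronger, at -211 bp, had a pooled signal of 57.5, and signals of 17.1, 24.1 and 26.8 in the replicates. Its replicate q-values were 0.946, 0.0067 and 0.0193. For stg the nearest reproducible summit outside the counting rule lay 9.501 kb upstream, an intergenic peak of rank 3582, and for dap it lay 26.178 kb upstream. Of the 42 pooled peaks at the 10 genes that were not reproducible, 7 had a matching peak in all 3 replicates, and 1 had none.

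**Figure D2:**
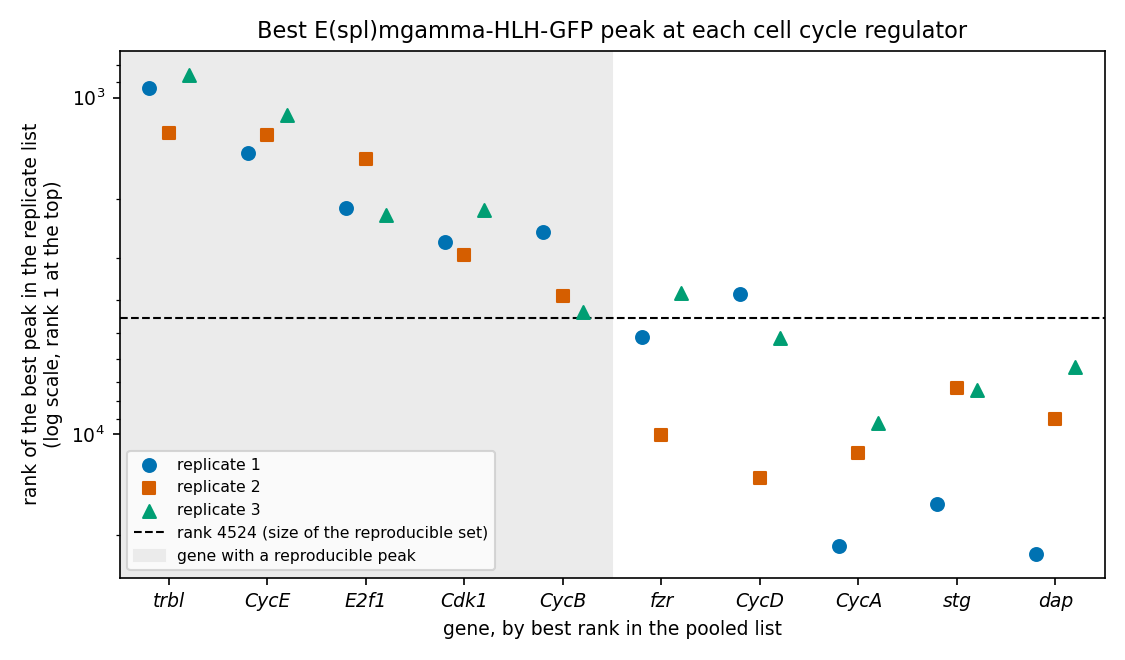
Rank of the strongest peak at each of the 10 genes in replicates 1, 2 and 3, on a log axis with the strongest at the top and a line at rank 4524, the limit of the top peaks. The 5 genes with a reproducible peak lie above the line in every replicate, while stg, CycA and dap lie below it in every replicate.

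The 9 reproducible sites were then put on 1 scale. For each replicate, a percentile was taken among the 4360 reproducible peaks with a match in every replicate. The order by mean percentile began with trbl +1872 at 76.9 ± 5.62, trbl +3140 at 72.1 ± 2.83 and CycE -419 at 71.2 ± 3.72 (SD, n = 3 for each site). CycE -647 followed at 54.9 ± 19.4, then E2f1 +4757 at 49.9 ± 16.3, E2f1 +3385 at 48.5 ± 3.48 and Cdk1 at 43.1 ± 7.69. The lowest were CycB at 27.0 ± 15.7 and trbl +1670 at 13.0 ± 21.5. Every pair of neighbours in this order overlapped in the range of its replicates. For CycE -419 and CycE -647 the overlap came only from the replicate 3 peak counted at both. In replicates 1 and 2 CycE -647 was at 36.1 and 53.7, below the lowest CycE -419 value of 67.4. The other neighbours did not differ beyond their spread. The 3 sites at the top had no replicate below 67.4, and no replicate of the E2f1, Cdk1, CycB or trbl +1670 sites was above 66.2. CycE -647 overlapped both sets, the upper one only through its replicate 3 value, which is shared with CycE -419. The trbl +1670 values rest on taking the nearest summit as the match. In replicate 2 that site also lay inside the peak matched to trbl +1872, which was at 70.5. The median SD over the 4360 peaks was 10.6, with quartiles of 5.09 and 17.4. The SDs of CycE -647, which takes in the shared value, and trbl +1670 were above the upper quartile. Those of trbl +3140, E2f1 +3385 and CycE -419 were below the lower one, and that of CycE -419 also takes in the shared value. Since the set was selected on agreement between replicates, these spreads may be smaller than those of peaks in general.

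**Figure D3:**
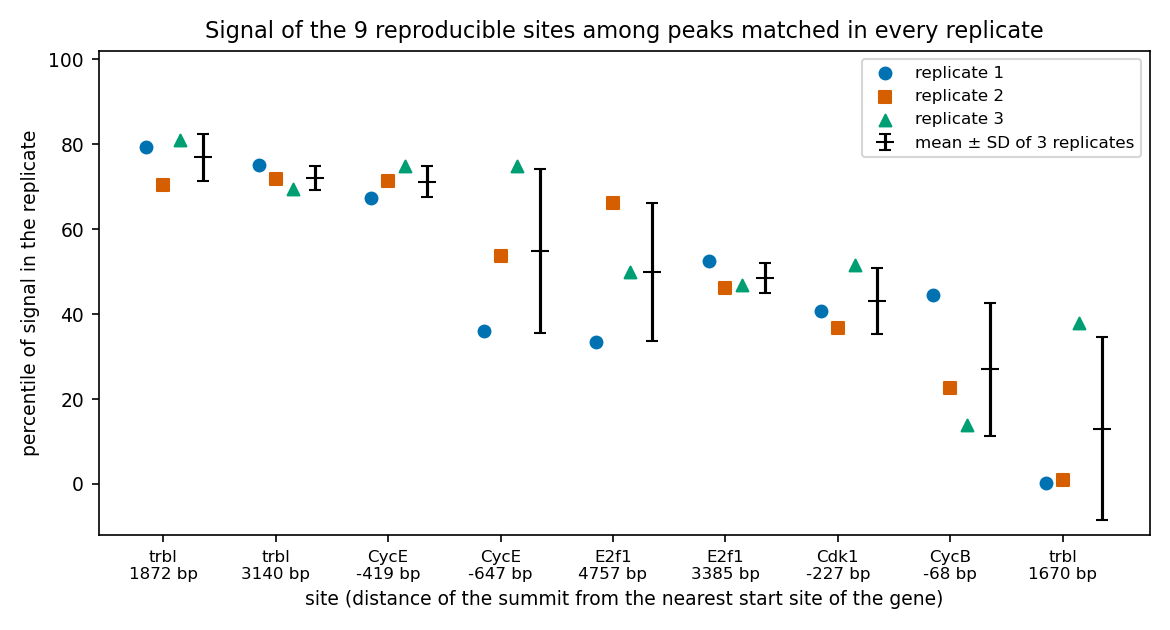
Percentile of each of the 9 reproducible sites in replicates 1, 2 and 3 among the 4360 matched peaks, with the mean and SD of the 3 replicates. The sites trbl +1872, trbl +3140 and CycE -419 sit above 67 in every replicate, and trbl +1670 spans 0.184 to 37.9.

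By position, 3 of the 9 summits lay in a promoter (33.3%), within 500 bp of any TSS, and the other 6 in an intron (66.7%). In the whole set 50.1% of summits were in promoters and 35.6% in introns. The best rank of the 5 genes was between 1016 and 3081 with a median of 2185, and over all protein-coding genes with a reproducible peak the median best rank was 1719. The strongest trbl site was most like, in its percentiles over the 3 replicates, the peaks nearest to the TSSs of rdog, CG13339 and Tret1-1. The summed differences in percentile were 4.01, 4.34 and 4.52, the smallest among 4351 other peaks.

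Sequence motifs were sought on both strands within 101 bp windows around the summits. The list held the E-box CACGTG and the site CACGCG, both bound by Hairy/E(spl) proteins, the N-box CACNAG, the DNA replication-related element TATCGATA and the E2F sites TTTCGCGC and TTTGGCGC, none of which contains another. Of the 9 windows, 1 held any of these, the N-box at trbl +1872, against 14.1% of the 4524 windows of the set. The N-box alone was in 10.5% of the set's windows, CACGTG in 0.818%, CACGCG in 1.17%, TATCGATA in 1.95%, TTTCGCGC in 0.155% and TTTGGCGC in 0.464%. Over whole peaks, 2 of the 9 held an N-box, at CycB and trbl +1670, against 31.4% of the set. The match in the trbl +1670 peak is the same one that lies in the trbl +1872 window. CATATG, which was in 2 of the 9 windows, both at CycE, was in 3.89% of the set's windows, and it was chosen because it was seen there. The GC content of the 9 windows ranged between 20.8% at E2f1 +4757 and 44.6% at trbl +1872, against a mean of 34.7% ± 8.81 over the set (SD over windows). A letter match is not evidence of binding, and its absence says only that those letters are not in the window.

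Reproducible peaks also lay just past the counted territory of fzr, E2f1 and Cdk1, at promoters of other genes. The peak 281 bp past the 3′ end of fzr was rank 115 of the set, at ranks 105, 131 and 136 in the replicates, and lay at -309 bp from the TSS of CG3009. Past the 3′ end of E2f1 a peak 848 bp away was rank 842, at ranks 751, 608 and 1596, and lay at -135 bp from a TSS of InR, the insulin receptor gene. Upstream of Cdk1 a peak 1732 bp away was rank 2090, at ranks 2181, 2114 and 2157, and lay at -111 bp from a TSS of da, which encodes the E protein partner of proneural factors. None of these was counted at the 10 genes.

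A further 76 genes of the cell cycle machinery, taken from a list in 6 groups, gave the setting of the 10. Of these, 30 (39.5%) had a reproducible peak, against 26.4% of all protein-coding genes. The best peak of 26 of the 30 was in the promoter class, and for 15 the gene's own TSS was the nearest protein-coding one. The median best rank was 1390, with a range of 80 to 4438. Counts from the top peaks of replicates 1, 2 and 3 were 32, 30 and 33. The difference from all genes was smaller under 2 of the other assignment rules: by nearest TSS 18 of the 76 (23.7%) had a peak, against 22.0% of all protein-coding genes, and with gene bodies only 10 (13.2%), against 11.3%.

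Known partners of the 10 proteins were in this list. Dp, the partner of E2f1, had 3 reproducible peaks, the best at -248 bp with rank 200 and replicate ranks of 217, 282 and 153. Cdk4, the partner of cyclin D, had a peak at -596 bp with rank 1667. Cdk2, the partner of cyclin E, had no reproducible peak and no top peak in any replicate. In the E2F, Rb and Myb-MuvB group, 3 of 9 genes had a peak, and the other two were lin-52 and mip130, each nearer to the TSS of a neighbour. Among cyclins, CDKs and subunits 3 of 9 had one, the others being CycH (rank 3626) and Cdk7 (rank 3838, nearer to the TSS of snf). None of the 4 genes for CDK phosphorylation (twe, Wee1, Myt1 and Cdc14) had a reproducible peak or a top peak in any replicate. The share of all protein-coding genes with a reproducible peak was 26.4%. The 33.3% of each group of 9 was near it, and 4 genes are too few to set against it.

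The other groups hold the machinery on which these regulators act. Of 16 genes for the APC/C and SCF ubiquitin ligases 7 had a peak (43.8%, against 26.4% of all protein-coding genes). The best ranked were SkpA (rank 175, nearer to the TSS of Hmt4-20), the APC/C subunit gene Cdc16 (rank 342, at -67 bp, replicate ranks 399, 367 and 357) and APC7 (rank 586, in its 3′ UTR and nearer to the TSS of pigs, at -560 bp from that TSS). Of 21 replication genes 9 had one (42.9%, against the same 26.4%). These included chif, the Dbf4-type activator of Cdc7 kinase, with 3 peaks and a best rank of 80, at ranks 135, 60 and 84 in the replicates. The ribonucleotide reductase gene RnrS (rank 341, at -172 bp) and the Mcm4 gene dpa (rank 611, at -98 bp) came next. Of 17 genes for mitotic and checkpoint kinases, the spindle checkpoint and separase 8 had a peak (47.1%, against 26.4%). They were led by tefu, mei-41 and Bub3 at ranks 887, 939 and 1200. All 3 of those summits were nearer to the TSS of a neighbouring gene, and the tefu summit had replicate ranks of 433, 3670 and 727, with replicate 2 the low one.

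**Figure D4:**
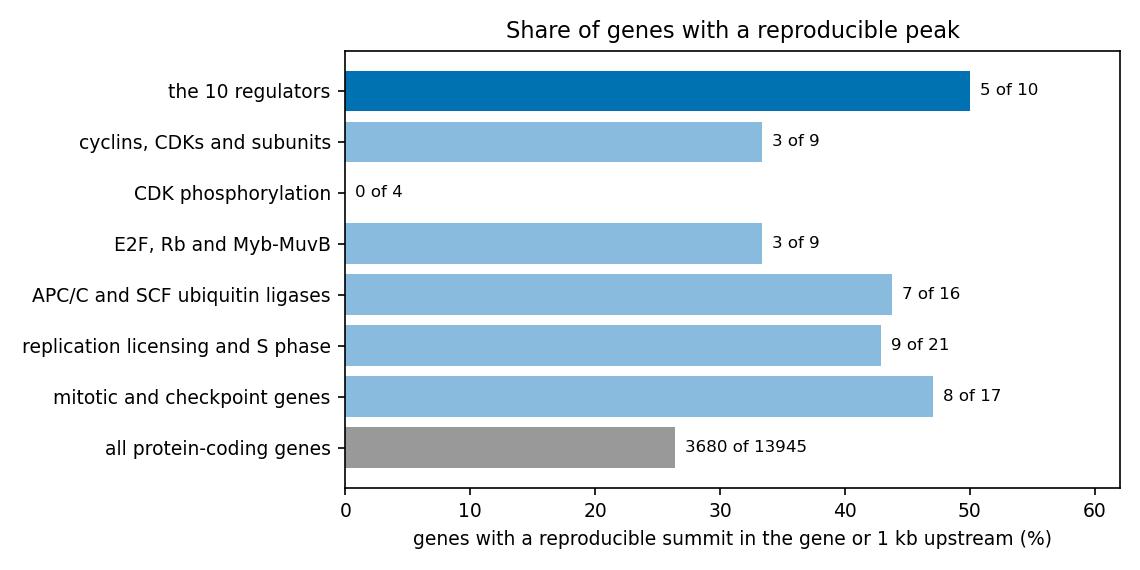
Percent of genes with a reproducible peak among the 10 cell cycle regulators, the 6 groups of further cell cycle genes and all protein-coding genes, as bars with the counts beside them. The 10 regulators stand at 50%, CDK phosphorylation at 0, and all protein-coding genes at 26.4%.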

How the data were processed

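The study deposited peak lists of E(spl)mgamma-HLH-GFP ChIP-seq in narrowPeak layout. Per the deposited text records, the replicate lists were called on each replicate against a control, the pooled list on all 3 together, and the reproducible set was derived from these. Which aligner, caller and IDR cutoff were used is not given in the sources used here. The deposited signal (column 7) is a coverage-type value of the authors' caller, not normalized between lists. The deposited q-value is on the −log10 scale, and the deposited summit offset is in bp. Read depth is unknown, and the replicate 2 list has a round length of 30000 peaks, background regions included in every such list. The dm3 lists were not used here.

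Summits were placed on Ensembl release 115 genes (BDGP 6.54, transposable elements left out), with classes taken in the order promoter, 5′ UTR, CDS, 3′ UTR, intron and intergenic. A replicate peak matched a site when it contained the reproducible summit, the nearest summit being taken. Python 3.11.15, numpy 2.4.6, pandas 2.3.3 and matplotlib 3.10.9 were used, and the steps were tested on simulated peaks. The 10 genes, the 76 further genes and the motifs were chosen with earlier results of these data known. All 10 genes are named, and of each further group the 3 genes with the best ranked peak. Symbols of 2 further genes were older ones, matched through RefSeq synonyms. Counts are descriptions, and no test was made. Alternatives were other peak lists, leaving out each replicate, other assignment rules, promoter widths, match rules and motif windows.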

Additional observations from a re-analysis of the deposited data

How the results depend on the processing

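The count of 5 genes rested on the choice of list and rule. It was 9 with pooled peaks of a q-value below 0.05, against 37.9% of all genes, and 10 with the whole pooled list, against 56.8%. It was 3 with gene bodies only or with summits within 1 kb of an own TSS (against 11.3% and 23.1% of all genes). The 9 summits became 21, 51 and, by the TSS rule, 4. The 30 further genes became 47 and 59 with those lists, which are 61.8% and 77.6% of the 76, against 37.9% and 56.8% of all genes. They became 10 with gene bodies only and 18 by nearest TSS, which are 13.2% and 23.7% of the 76, against 11.3% and 22.0% of all genes. The 26.4% of all genes became 16.2% with the upper part of the set by signal, 56.8% with the whole pooled list and 11.3% with gene bodies only. The 3 promoter summits became 9 and 15 with those lists. Of 27 matches in the replicates, 15 were left when peaks had to overlap by 50% of each. Windows with a motif were 2, not 1, over whole peaks. Leaving out each replicate in turn limited the reproducible peaks to top peaks of the other replicates. The set itself still came from all 3 replicates, so no gene or peak could enter and counts could only stay or fall. This is therefore no independent check of stability. It kept the same 5 genes (5 to 5), 8 to 9 summits and 3 to 3 promoter summits. The 9 came without replicate 1, where the trbl +1670 summit also lies inside the replicate 2 peak matched to trbl +1872. Kept as well were 23 to 28 further genes and 21.0% to 22.9% of all genes. The cause of these shifts was not tested. No paired analysis was possible because the study has 1 group, so no groups share replicate numbers; differences between sites within a replicate were not tested. Unknown depth limits every count, and a missing peak is not absence of binding.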
